A study of Homo sapiens with 8 samples.

Results

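The regions described here are the H4K16ac peaks of untreated KGN cells that overlapped an H4K16ac peak of butyrate-treated KGN cells by 1 bp or more. There were 4529 such shared peaks among 73586 control peaks, which is 6.15% of the control list. KGN cells are a permanent human line derived from a granulosa cell tumour of the ovary and are used to stand in for the steroid-making cells around the oocyte. Chromatin immunoprecipitation followed by sequencing (ChIP-seq) was done on cells given 1 mM butyrate for 6 h and on cells without it, with 1 library per condition for H4K16ac, H3K9ac and a nonspecific immunoglobulin (IgG). Input samples were not analysed here. Overlap of the 2 H4K16ac lists chose the members, so the number of shared peaks and their strength in these lists are descriptions. The H3K9ac lists, the gene annotation and the promoter sequences played no part in the choice. With 1 library per condition and antibody, no difference was tested against replicate error and no p-value for a difference is given. Ranges in parentheses after a percentage are exact (Clopper-Pearson) 95% intervals, which cover the counting of peaks or genes only and are given for the main shares. The number of overlaps that unrelated lists would give was not computed. The peak names in both lists labelled H4K16ac carry the letters k12 where lysine 16 would be named, so H4K16ac means here the libraries with that label.

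Histone tails carry acetyl groups that are added by acetyltransferases and removed by deacetylases, and butyrate, a short-chain fatty acid, inhibits many deacetylases. H4K16ac, acetylation of histone H4 at lysine 16, is placed mainly by the acetyltransferase KAT8 within the MSL and NSL complexes and loosens the packing of nucleosomes. H3K9ac, acetylation of histone H3 at lysine 9, is best known at the promoters of active genes. In granulosa cells, AMHR2, which encodes the anti-Müllerian hormone receptor, and CYP11A1, the enzyme that makes the first steroid from cholesterol, are among the genes that mark the cell type.

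Sequence upstream of genes that lay inside a shared pair is shown first, because it gives bases inside the peaks of both conditions. The RefSeq promoter table of GRCh38.p14 held 14 promoter windows with 1 or more bases inside both peaks of a shared pair, in the 250 bases before a start. Of these, 5 lay outside the bounds of every gene of the RefSeq table, at AMHR2, USHBP1, NSD1, NRM and CRIP3. The 3 of these 5 with the most such bases are printed 5′ to 3′ on the strand of the gene, with the bases inside both the butyrate and the control peak in capitals. AMHR2 lies on the plus strand with its window at chr12:53423605-53423854. CRIP3, which encodes a LIM-domain protein, lies on the minus strand with its window at chr6:43308827-43309076. USHBP1 lies on the minus strand with its window at chr19:17264746-17264995.
AMHR2: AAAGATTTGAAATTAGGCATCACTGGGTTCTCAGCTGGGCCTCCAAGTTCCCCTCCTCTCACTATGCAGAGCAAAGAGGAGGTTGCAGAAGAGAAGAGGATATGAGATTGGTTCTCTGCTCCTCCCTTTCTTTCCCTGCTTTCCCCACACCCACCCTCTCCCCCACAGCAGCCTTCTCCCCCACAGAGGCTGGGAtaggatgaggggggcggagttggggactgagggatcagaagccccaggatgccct
CRIP3: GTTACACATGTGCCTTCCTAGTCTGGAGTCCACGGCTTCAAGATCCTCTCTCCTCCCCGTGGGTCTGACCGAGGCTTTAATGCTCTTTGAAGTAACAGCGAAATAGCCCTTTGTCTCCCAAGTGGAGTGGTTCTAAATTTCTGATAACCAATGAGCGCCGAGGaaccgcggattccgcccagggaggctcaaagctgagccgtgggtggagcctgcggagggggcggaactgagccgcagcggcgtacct
USHBP1: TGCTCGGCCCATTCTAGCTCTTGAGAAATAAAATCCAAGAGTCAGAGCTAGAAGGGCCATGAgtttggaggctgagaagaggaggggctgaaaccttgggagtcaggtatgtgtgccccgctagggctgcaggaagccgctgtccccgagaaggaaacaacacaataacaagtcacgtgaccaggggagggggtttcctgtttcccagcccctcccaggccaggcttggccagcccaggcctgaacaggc

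In the AMHR2 window, 195 of the 250 bases lay inside both peaks, against 163 in the CRIP3 window and 62 in the USHBP1 window. The letters CCAAT, searched on both strands, occurred among the capitals of AMHR2 and CRIP3, and GGGCGG occurred in the part of both windows that lay outside the overlap. The AMHR2 window held 1 CpG dinucleotide, the CRIP3 window 15 and the USHBP1 window 5. At AMHR2 the butyrate peak had a −log10 p of 4.67 and the control peak 5.03, by the authors' peak caller. At CRIP3 these values were 2.74 with butyrate and 2.47 in control, close to the lower limit of both lists. Neither condition had an H3K9ac peak over the AMHR2 and CRIP3 peaks that reach into these windows, but an H3K9ac peak reached within 1 kb of a start of AMHR2 with butyrate and none did in control.

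Shared peaks were somewhat wider than the control peaks that had no butyrate counterpart, called control-only peaks here, and had nearly the same fold enrichment. The median width was 438 bp for shared peaks and 353 bp for the 69057 control-only peaks. Their median fold over local background, the authors' own value for each peak, was 2.999 for shared and 2.944 for control-only peaks, and the median −log10 p was 3.93 and 3.69. On the butyrate side, 4533 of 33752 peaks overlapped a control peak, which is 13.4% of that list. These had a median width of 351 bp and a −log10 p of 3.44, against 309 bp and 3.15 for the 29219 butyrate-only peaks. Both H4K16ac lists were limited on p and not on q, and few of their butyrate peaks passed a q of 0.05. 94 of the 4533 butyrate peaks at shared sites had a q of 0.05 or less, while 2156 of the 4529 control peaks did, and 56 shared peaks did in both.

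The share of control peaks that were shared went up with peak width. It was 3.86% for peaks under 300 bp, 4.90% from 300 to under 400 bp, 6.52% from 400 to under 600 bp, 11.6% from 600 to under 1000 bp and 25.7% at 1000 bp or more. A wide peak has more bases that can touch another peak, and the part of width in this order was not tested. Butyrate peaks covered 2.39%, 2.59%, 2.98%, 4.40% and 7.74% of the control peak bases over the same widths. The share went up with the strength of the control peak too, 4.87% where the −log10 p was under 3 and 15.9% where it was 7 or more.

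Within a pair the peaks often met only in part. The overlap had a median of 222 bp and ran from 1 to 1135 bp, and the butyrate peak covered a median of 43.1% of the control peak. In 42.3% of shared peaks it covered 50% or more. The summits, the positions of highest signal, lay a median of 205 bp apart, and 49.0% of pairs had them within 200 bp. The butyrate peak had the higher fold in 44.3% of pairs and the higher −log10 p in 34.6%. Peaks just inside the rule, with an overlap of 1 to 25 bp (227 peaks), had a median −log10 p of 3.85, and those just outside it, with a gap under 25 bp (198 peaks), had 3.75.

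Of the 8 strongest shared peaks, 1 lay at a promoter, 4 inside genes and 3 outside protein-coding genes. Shared peaks were ranked by the smaller of the butyrate and the control −log10 p. The first lay at chr5:70219727-70220091 in GUSBP14, a pseudogene of the beta-glucuronidase gene GUSB, with a −log10 p of 11.5 with butyrate and 8.90 in control. The second, at chr5:21495237-21495883 in GUSBP1, had 7.43 with butyrate and 11.1 in control. GUSB has many near-identical pseudogene copies, so the reads at these 2 peaks could come from other copies, and both peaks had no H3K9ac peak in either condition.

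Among protein-coding genes, RAP1GAP2, which encodes a GTPase-activating protein of the small GTPase Rap1, held the strongest shared peak in its body. This peak, at chr17:3008451-3009569, had a −log10 p of 8.80 with butyrate and 7.37 in control, and an H3K9ac peak with butyrate alone. KRT80, a type II keratin gene, had 7.71 with butyrate and 7.10 in control at chr12:52186757-52188924, with H3K9ac in both conditions. AQP2, an aquaporin water channel gene, had 7.10 with butyrate and 7.15 in control at chr12:49957691-49959071. SSC4D, which encodes a scavenger receptor cysteine-rich protein, had 6.73 with butyrate and 6.85 in control at chr7:76390075-76390815, and neither AQP2 nor SSC4D had H3K9ac there. The other 2 of the 8 strongest lay at chr6:6695472-6696258, over the noncoding gene LOC101928004, with 7.37 with butyrate and 10.8 in control, and upstream of CDH16.

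Shared peaks lay between genes more often, and inside genes less often, than control-only peaks. A peak was put at a promoter when it reached within 1 kb of the start of a protein-coding gene, otherwise in a gene body when it overlapped such a gene, and otherwise between genes. Gene bodies held 52.7% (51.2 to 54.1) of shared peaks, 69.2% (68.9 to 69.6) of control-only peaks and 52.2% (51.7 to 52.8) of butyrate-only peaks. Sequence between genes held 41.0% (39.6 to 42.5) of shared, 24.7% (24.4 to 25.04) of control-only and 45.1% (44.5 to 45.7) of butyrate-only peaks. Promoters held 6.29% (5.60 to 7.04) of shared and 6.04% (5.87 to 6.23) of control-only peaks, with overlapping intervals, and 2.69% (2.51 to 2.88) of butyrate-only peaks. The butyrate peaks at shared sites lay at promoters in 5.01%, in gene bodies in 53.4% and between genes in 41.6%. In location, shared peaks thus stood nearer to the butyrate-only than to the control-only peaks, except at promoters.

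**Figure D1:**
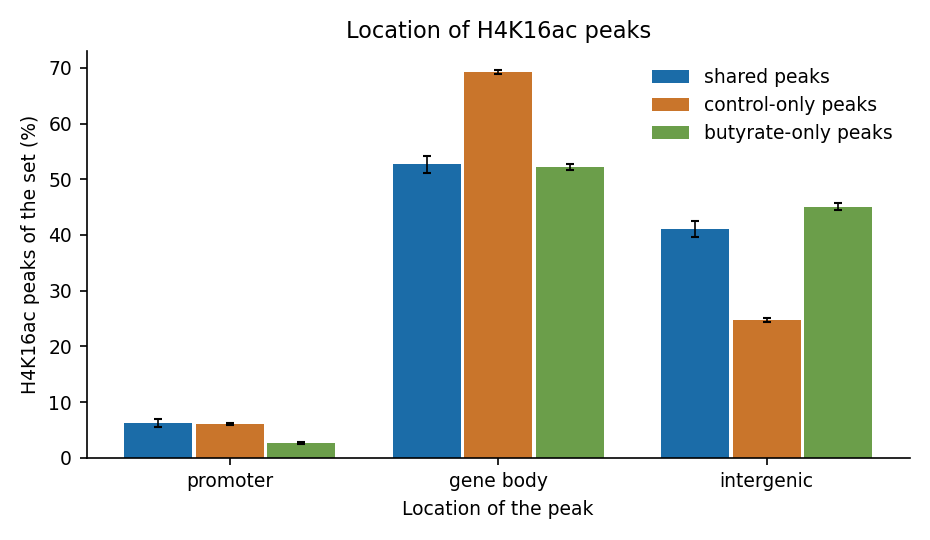
Share of H4K16ac peaks (%, y axis) at promoters, in gene bodies and between genes (x axis) for 4529 shared, 69057 control-only and 29219 butyrate-only peaks, with exact 95% intervals as error bars. In gene bodies the shared bar (52.7%) stands at the level of the butyrate-only bar (52.2%) and below the control-only bar (69.2%).

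The lower share in gene bodies held at every peak width. Among peaks under 300 bp, 57.2% of shared and 70.8% of control-only peaks lay in gene bodies, and from 600 to under 1000 bp the shares were 49.1% and 65.3%. The authors' own annotation of each peak gave the same order, with introns under 51.8% of shared, 64.9% of control-only and 51.2% of butyrate-only peak centres. First introns held nearly equal shares, 13.9% of shared and 13.5% of control-only centres. Shared peaks inside genes also lay nearer to a gene start, at a median of 18030 bp, against 26900 bp for control-only peaks inside genes.

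H3K9ac from butyrate-treated cells lay over shared peaks more often than over the other H4K16ac peaks. A butyrate H3K9ac peak overlapped 25.02% (23.8 to 26.3) of shared peaks, or 1133, against 15.2% (14.9 to 15.4) of control-only peaks and 10.3% (9.94 to 10.6) of butyrate-only peaks. Shared peaks are the control peaks of each pair, and for the butyrate peaks at shared sites this share was 22.55%. Over all control H4K16ac peaks this share was 15.8%, and over all butyrate H4K16ac peaks 11.9%. A control H3K9ac peak overlapped 4.92% (4.31 to 5.59) of shared peaks, or 223, against 5.64% (5.47 to 5.82) of control-only and 1.30% (1.18 to 1.44) of butyrate-only peaks. For the butyrate peaks at shared sites it was 3.62%. The share was 5.6% over all control and 1.61% over all butyrate H4K16ac peaks, so control H3K9ac at shared peaks was near its background. H3K9ac with butyrate alone was found at 20.5% of shared and 9.84% of control-only peaks. Most shared peaks, 74.6%, had no H3K9ac peak of either condition over them. The butyrate H3K9ac list held 79356 peaks and the control list 22215, so a butyrate share and a control share are not on one scale. When the butyrate H3K9ac list was limited to as many top peaks as the control list holds, butyrate H3K9ac lay over 10.1% of shared and 7.88% of control-only peaks, a difference of 2.23 percentage points in place of 9.84.

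The H3K9ac pattern was not the same at promoters and elsewhere. At promoters, butyrate H3K9ac lay over 62.8% (56.9 to 68.4) of shared, 71.9% (70.5 to 73.3) of control-only and 36.1% of butyrate-only peaks, so the shared share was below the control-only share there. In gene bodies the shares were 20.6% (19.02 to 22.3) for shared, 8.84% (8.59 to 9.10) for control-only and 11.05% for butyrate-only peaks. Between genes they were 24.9% (22.9 to 26.9) for shared, 19.03% (18.4 to 19.6) for control-only and 7.87% for butyrate-only peaks. Control H3K9ac lay over 34.0% (28.6 to 39.9) of shared and 57.4% (55.9 to 58.9) of control-only promoter peaks. In gene bodies it lay over 3.06% (2.41 to 3.83) of shared and 1.72% (1.61 to 1.84) of control-only peaks, the opposite order.

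**Figure D2:**
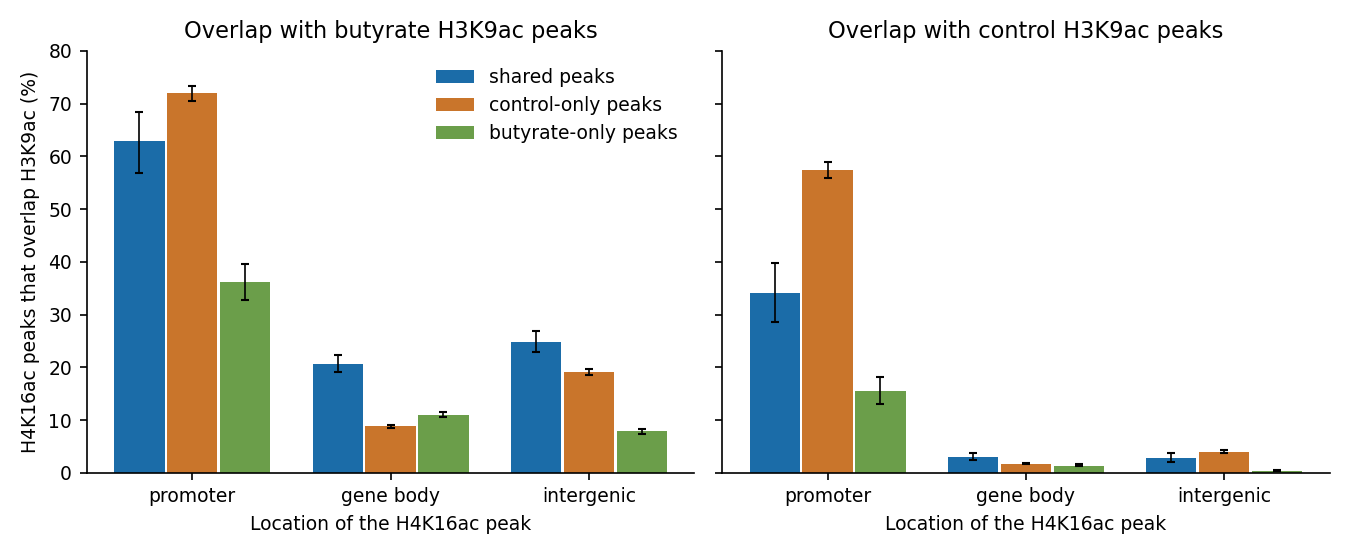
Share of H4K16ac peaks (%, y axis) that overlapped a butyrate (left panel) or control (right panel) H3K9ac peak, by location (x axis), for shared, control-only and butyrate-only peaks, with exact 95% intervals. In gene bodies 20.6% of shared and 8.84% of control-only peaks had butyrate H3K9ac, while at promoters the control-only bars are the higher in both panels.

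The difference in butyrate H3K9ac was seen at each peak width. Under 300 bp, butyrate H3K9ac lay over 15.7% of shared and 11.2% of control-only peaks. From 400 to under 600 bp the shares were 22.4% and 16.8%, and at 1000 bp or more 56.3% and 43.0%. Control H3K9ac was the lower at shared peaks in all 5 width groups, with 3.25% of shared and 6.14% of control-only peaks from 400 to under 600 bp. The intervals for control H3K9ac overlapped under 300 bp and at 1000 bp or more. In each of 5 groups by the control −log10 p, too, shared peaks had butyrate H3K9ac more often, with 16.7% of shared and 11.97% of control-only peaks below 3 and 51.3% and 38.7% at 7 or more.

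**Figure D3:**
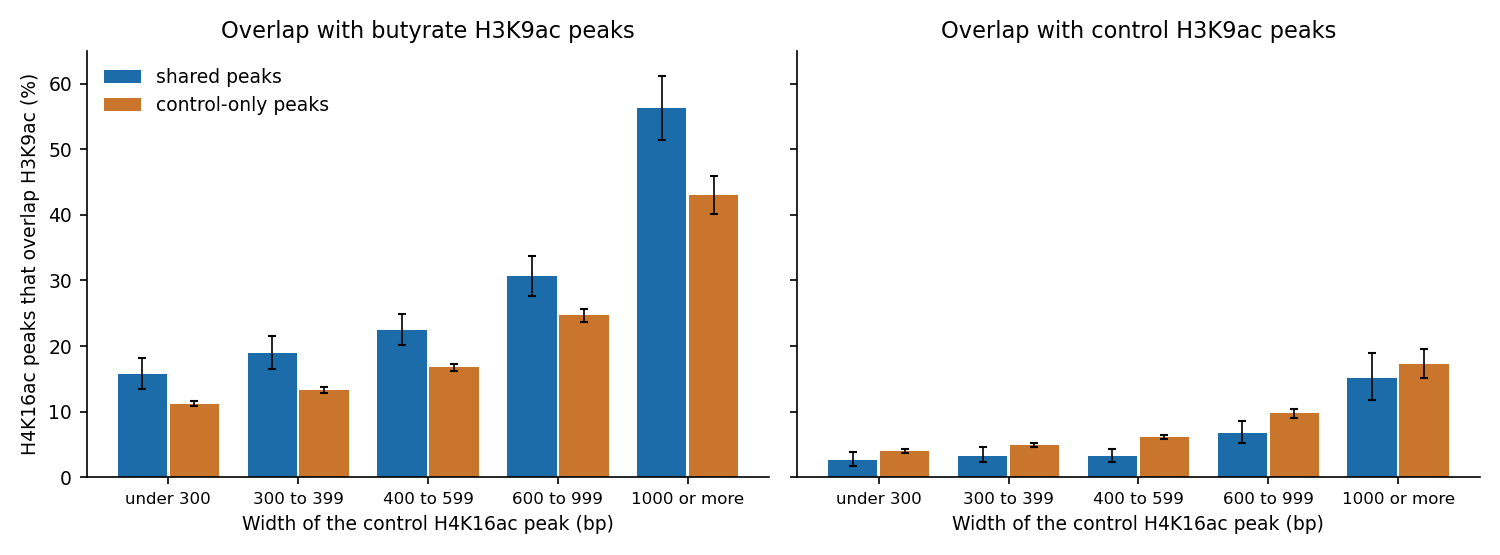
Share of control H4K16ac peaks (%, y axis) that overlapped a butyrate (left panel) or control (right panel) H3K9ac peak, by width of the H4K16ac peak (bp, x axis), for shared and control-only peaks, with exact 95% intervals. Butyrate H3K9ac is the higher at shared peaks in all 5 width groups, from 15.7% against 11.2% to 56.3% against 43.0%, and control H3K9ac is the lower.

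The surroundings of shared peaks were richer in H3K9ac than those of control-only peaks in both conditions. A butyrate H3K9ac peak lay within 10 kb of 85.4% of shared and 60.5% of control-only peaks. A control H3K9ac peak lay within 10 kb of 47.6% of shared and 33.3% of control-only peaks, although direct overlap with control H3K9ac was the less frequent at shared peaks. The H3K9ac peaks that shared peaks touched had a lower fold than those over control-only peaks. Among butyrate H3K9ac peaks, the median fold was 3.48 for the 1207 over shared peaks, 3.91 for those over control-only peaks and 3.44 for the whole list. Those over shared peaks had a median −log10 q of 4.41 and a width of 666 bp, against 5.19 and 769 bp over control-only peaks and 3.67 and 472 bp for the whole list. Among control H3K9ac peaks it was 4.48 for the 232 over shared peaks, against 5.86 over control-only peaks and 4.92 for the whole list. No shared peak overlapped an IgG peak, but the IgG lists held only 2 peaks with butyrate and 5 in control.

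Shared peaks were gathered in parts of the genome that were dense in control H4K16ac. In windows of 100 kb with 1 control peak, 3.61% of control peaks were shared, and in windows with 20 or more the share was 10.4%. Of 10617 windows with a control peak, 2533 held a shared peak and 130 held 5 or more, and these 130 held 20.8% of all shared peaks. Neighbouring shared peaks lay under 5 kb apart in 809 of 4506 pairs, or 17.9%, against 51.4% of neighbouring pairs in the far longer list of all control peaks. In the 130 windows, butyrate H3K9ac lay over 38.5% (35.4 to 41.7) of shared and 37.9% (36.1 to 39.8) of control-only peaks, which are within each other's intervals. Outside them the shares were 21.5% (20.1 to 22.9) and 14.2% (14.0 to 14.5). When windows were grouped by their number of control H4K16ac peaks alone, which did not use the overlap, shared peaks had butyrate H3K9ac more often in each of the groups tried, with 17.5% of shared and 10.97% of control-only peaks at 1 to 4 control peaks a window and 32.8% and 22.6% at 20 or more.

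The window with the most shared peaks was chr21:43300001-43400000, with 21 shared of 40 control H4K16ac peaks. It holds the long noncoding RNA genes LINC00322 and LINC01679, and 14 of its shared peaks had butyrate H3K9ac and 4 had control H3K9ac. The next, chr11:3800001-3900000, had 20 shared of 39 control peaks and holds PGAP2, which acts in the maturation of lipid anchors of membrane proteins, RHOG, a small GTPase gene, and STIM1, the calcium sensor of the endoplasmic reticulum. The window chr2:20500001-20600000 at HS1BP3 had 19 of 58. In chr5:173700001-173800000, with no protein-coding gene in the RefSeq table, 16 of 57 control peaks were shared, 24 butyrate H3K9ac peaks stood beside 0 control H3K9ac peaks, and 1 shared peak had H3K9ac over it. The window chr11:72100001-72200000, which holds the folate receptor genes FOLR1 and FOLR3, had 16 of 48.

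**Figure D4:**
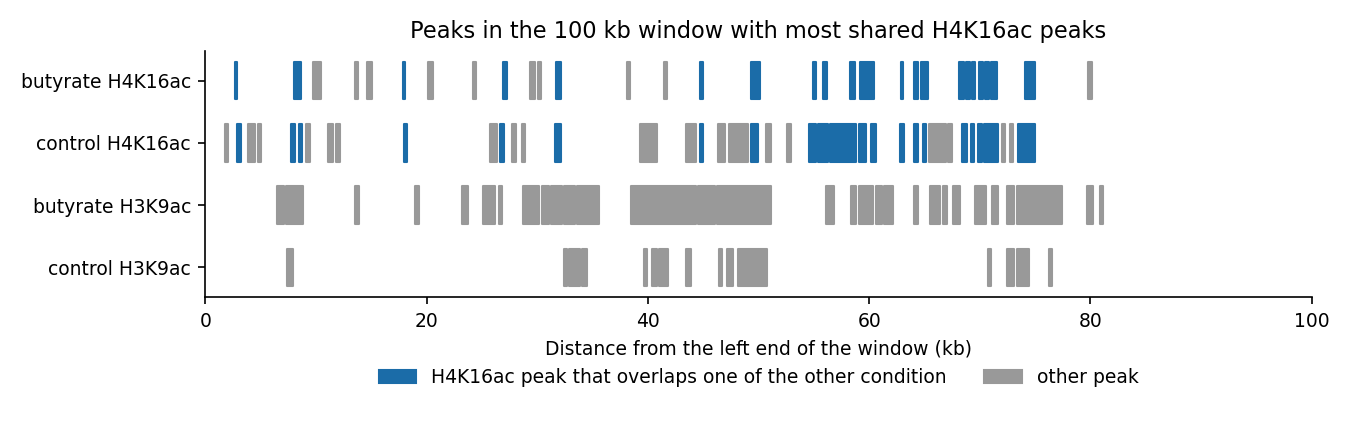
Peaks of the 4 histone libraries (rows) in the 100 kb window of chromosome 21 with 21 shared of 40 control H4K16ac peaks, by distance from its left end (kb, x axis). Blue H4K16ac peaks overlap a peak of the other condition and lie densest between about 55 and 75 kb, and grey marks all other peaks, H3K9ac included.

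By chromosome, the share of control peaks that were shared was lowest on chromosome 4, with 11 of 948 control peaks or 1.16% (0.581 to 2.07), followed by chromosome 14 with 2.36% (1.45 to 3.62), chromosome 13 with 2.59% (1.68 to 3.80) and the X chromosome with 3.50% (2.66 to 4.52). It was highest on chromosome 22, with 154 of 1907 peaks or 8.08% (6.89 to 9.39), and on chromosome 6, with 294 of 3684 or 7.98% (7.13 to 8.90). The interval of chromosome 4 overlapped those of chromosomes 14 and 13, and the interval of chromosome 22 overlapped those of chromosomes 6, 5, 17, 16 and 1, among others. Peaks were also narrower on chromosomes with a low share, with a median control width of 318 bp on chromosome 4 and 313 bp on chromosome 14, against 360 bp on chromosome 22 and 370 bp on chromosome 6. Chromosome 14 had 25.6 butyrate H4K16ac peaks per 100 control peaks and chromosome 4 had 31.6, the lowest of the 23 chromosomes, and the part of peak width and of butyrate peak number in the order was not tested. Shared peaks had butyrate H3K9ac more often than control-only peaks on 20 of the 23 chromosomes.

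**Figure D5:**
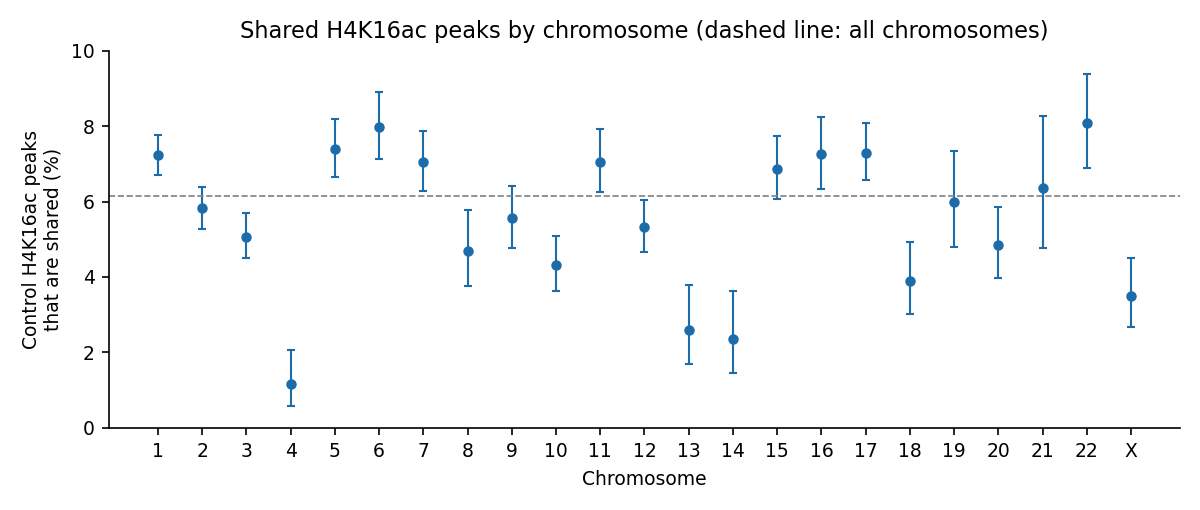
Share of control H4K16ac peaks that were shared (%, y axis) on each chromosome (x axis), with exact 95% intervals and the share over all chromosomes, 6.15%, as a dashed line. Chromosomes 4, 14, 13 and X lie lowest, with chromosome 4 at 1.16%, and chromosomes 22 and 6 highest, at 8.08% and 7.98%.

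At the level of genes, 278 protein-coding genes had a shared promoter peak, which is 1.51% of the 18461 genes with a known start and 7.29% of the 3812 genes with a control H4K16ac promoter peak. The control peak had to reach within 1 kb of the start. At 204 of the 278 genes a butyrate peak did so too, which need not be the one that overlapped the control peak. A further 237 genes had a promoter peak in both lists but none that overlapped. Butyrate H3K9ac marked the promoter of 91.4% (87.4 to 94.4) of the genes with a shared promoter peak and 94.9% (94.2 to 95.6) of those whose control promoter peak was not shared. Control H3K9ac marked 79.1% (73.9 to 83.8) and 90.9% (89.9 to 91.9) of them. A promoter H3K9ac peak with butyrate alone was found at 34 of the 278 genes, or 12.2% (8.62 to 16.7), at 4.16% (3.53 to 4.87) of the genes with an unshared promoter peak and at 9.71% of all genes with a known start, a value inside the interval of the 278 genes. Over all genes with a known start, 68.2% had a butyrate and 58.7% a control H3K9ac promoter peak.

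The gene with the strongest shared promoter peak was CDH16, which encodes a cadherin of kidney epithelium. Its shared peak at chr16:66919196-66920470 had a −log10 p of 7.01 with butyrate and 7.08 in control, with an H3K9ac peak over it with butyrate and none in control. MYBBP1A, which encodes a nucleolar protein that binds MYB, had 6.68 with butyrate and 6.57 in control, at a peak that also overlaps the gene GGT6. At RRM1, the gene of the large subunit of ribonucleotide reductase, which makes the building blocks of DNA, the values were 5.91 with butyrate and 10.6 in control, and both conditions had H3K9ac over the peak. ARAP1 and STARD10, a lipid transfer protein gene, share 1 peak, with 5.87 with butyrate and 7.25 in control.

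The next of the 12 genes were RPAP1, which encodes a protein of RNA polymerase II assembly, INPPL1, an inositol phosphatase gene of insulin signalling, and PARP6, an ADP-ribosyltransferase gene. Their −log10 p was 5.87, 6.36 and 5.67 with butyrate and 6.58, 5.76 and 5.90 in control. S100A1 and S100A13, neighbouring genes of calcium-binding proteins, share a peak of 4530 bp with 5.62 with butyrate and 13.3 in control. PRSS56, a serine protease gene, had 5.35 with butyrate and 8.04 in control, and MOGS, which encodes the enzyme that trims the first glucose from new N-glycans, had 5.07 and 5.16. At CDH16, MYBBP1A, RRM1, INPPL1, PARP6, S100A1 and S100A13 the paired butyrate peak lay more than 1 kb from the listed start. The butyrate −log10 p given for these genes thus belongs to a peak outside the 1 kb reach of that start. Of the 12 genes, 10 had promoter H3K9ac peaks with butyrate and in control alike, the exceptions being CDH16 with none and PRSS56 with butyrate alone.

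The widest shared peaks were broad in control and were paired with narrower butyrate peaks. The widest, 4604 bp at chr6:31809648-31814251 over HSPA1L, a heat shock protein gene, had a −log10 p of 4.38 with butyrate and 14.8 in control. It met 2 butyrate peaks, and the stronger of them, taken as its pair, was 282 bp wide. HSPA1L has related heat shock genes nearby, and whether reads in its coding part could be shared between copies was not tested. Next came the S100A13 and S100A1 peak above, a peak of 4241 bp at PGAP2, and 2 peaks between genes, of 4097 bp at chr17:17022114-17026210 and of 3829 bp at chr11:102288306-102292134. All 5 had butyrate H3K9ac over them, and 3 had control H3K9ac. Among all shared peaks of 1000 bp or more, 56.3% had butyrate and 15.1% control H3K9ac. Control-only peaks of that width had 43.0% and 17.3%.

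Inside genes, 1667 of 19974 protein-coding genes held a shared peak, or 8.35%, and 1169 of them held exactly 1. CUX1, a homeodomain transcription factor gene, held the most, 23 of its 156 control peaks, over 468 kb of sequence. HS1BP3 held 20 of 50, CAMTA1, a calmodulin-binding transcription activator gene, 17 of 98, and IGF1R, the receptor of insulin-like growth factor 1, 16 of 83. AOPEP, an aminopeptidase gene, held 14 of 75, and the zinc finger transcription factor genes GLI2 and GLIS1 held 11 of 74 and 11 of 58. PGAP2 was the densest of the 8, with 12 of 14 control peaks shared in 28.7 kb. H3K9ac over these peaks varied, since butyrate H3K9ac lay over 8 of the 12 in PGAP2 and over 0 of the 14 in AOPEP.

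In the lists of granulosa identity genes and of steroidogenesis and cholesterol genes, AMHR2, CYP11A1 and ADCY9 held 2 or more shared peaks. Any shared peak within the gene bounds was found in 1 of 18 granulosa identity and 2 of 20 steroidogenesis and cholesterol genes. Over all protein-coding genes the share was 8.35%. Among 17 granulosa identity genes with a known start, 3 had a control promoter peak, 2 a butyrate promoter peak and AMHR2 alone a shared one. The share with a shared promoter peak was 1.51% over all genes with a known start. Besides the peak upstream of its start, AMHR2 held 2 control peaks within its bounds and both were shared, at chr12:53425156-53425627, within 1 kb of a listed start and with butyrate H3K9ac over it, with a −log10 p of 3.03 with butyrate and 4.19 in control, and at chr12:53430243-53430721 with 4.38 and 2.54. AMHR2 held 5 butyrate and 0 control H3K9ac peaks. No shared promoter peak was found among 19 steroidogenesis and cholesterol genes, but CYP11A1 had 3 shared of 8 control peaks in its body, 1 of them with butyrate H3K9ac. By the smaller −log10 p, the strongest of these lay at chr15:74364244-74364633, with 3.53 with butyrate and 4.385 in control, and it carried that H3K9ac. The peak at chr15:74340384-74341561 had a −log10 p of 3.15 with butyrate and 6.53 in control. ADCY9, an adenylate cyclase gene, had 2 shared of 29, and 6.15% of all control peaks were shared.

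In the machinery of H4K16ac itself, MCRS1, a subunit of the NSL complex, was the 1 of 11 KAT8, MSL and NSL genes with a shared promoter peak, with a −log10 p of 2.89 with butyrate and 4.59 in control. None of 19 acetyltransferase and reader genes and none of 21 deacetylase and sirtuin genes had one. Beside these and the promoter counts below, 1.51% of all genes with a known start had a shared promoter peak. Of the genes with a control promoter peak, 7.29% did. Any shared peak within the gene bounds was found in 3 of 12, 2 of 19 and 4 of 21 genes of these lists, and in 8.35% of all protein-coding genes. The NSL complex genes KANSL1 and PHF20 held 1 of 20 and 1 of 46 control peaks as shared. The acetyltransferase genes KAT6B and KAT7 held 1 of 17 and 1 of 10. HDAC11 held 2 of 9, HDAC4 1 of 37, SIN3A 1 of 26 and SIRT3 1 of 3. Over all control peaks 6.15% were shared. Among 31 cytosolic ribosomal protein genes, 18 had a control promoter peak and RPL23 a shared one, with 5.80 with butyrate and 5.03 in control. A butyrate peak within 1 kb of a start was found at 0 of the 31, so the butyrate peak paired at RPL23 lay farther away. Of 25 mitochondrial ribosome and respiratory chain genes, 20 had a control promoter peak and 2 a shared one. These were MRPL24, with 8.32 with butyrate and 4.65 in control, and MRPS18A, with 2.86 and 3.97. HSPA1B and HSPA1L were the 2 of 17 heat shock and chaperone genes with a shared promoter peak. Here, too, a butyrate peak reached within 1 kb of a start at 0 of the 17. None of 21 cell cycle genes and none of 17 fatty acid and butyrate metabolism genes had a shared promoter peak.

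Markers of other cell types were looked up in the same way. Among 7 blood and immune genes with a known start, CD68 and CSF1R had a shared promoter peak, of 4 with a control promoter peak. At CD68, a lysosomal protein gene of macrophages, the −log10 p was 2.31 with butyrate and 6.49 in control, and at CSF1R, the receptor of the macrophage growth factor CSF1, 4.58 and 2.47. The butyrate peak paired at CSF1R lay more than 1 kb from its listed start. The shared peak at CSF1R also lay within the bounds of the gene PDGFRB, where 11 of 28 control peaks were shared. None of 7 endothelial, 6 epithelial, 5 neuron, 7 theca and stroma and 6 oocyte marker genes had a shared promoter peak. In gene bodies, PECAM1 and CDH5, endothelial surface genes, held 3 of 17 and 2 of 3 control peaks as shared, KRT8 3 of 15 and ZP3 3 of 16. The lists are small, and over all genes with a known start the share with a shared promoter peak was 1.51%. Over all protein-coding genes, 8.35% held a shared peak within their bounds.

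Promoter windows under a shared peak were poorer in CpG than those under a control-only peak. The windows span 250 bases before to 50 after a RefSeq start, and several can belong to 1 gene. A shared peak is the control peak of its pair, so the butyrate peak need not reach the window. Bases inside both peaks were found in 14 windows, counted over the 250 bases before the start. The 48 windows that a shared peak touched had a median of 8.5 CpG dinucleotides (quartiles 3.0 and 19.2) and a GC content of 57.3%. The 707 windows that control peaks but no shared peak touched had 20 (7.0 and 29.0) and 60.7%, the 88 windows with a butyrate peak but no shared one had 5.0 (3.0 and 7.25) and 54.3%, and all 22132 windows had 21 and 62.3%. GGGCGG, on either strand, was in 41.7% (27.6 to 56.8) of windows under shared peaks, 54.6% (50.8 to 58.3) under control-only peaks, 18.2% (10.8 to 27.8) with a butyrate peak but no shared one and 56.3% of all windows. CCAAT was in 35.4% (22.2 to 50.5) of windows under shared peaks, 25.7% (22.6 to 29.1) under control-only peaks and 34.6% of all. TATAAA was in 6.25% (1.31 to 17.2) under shared and 9.62% under control-only peaks. With 48 windows the intervals for the 3 motifs overlapped between shared and control-only peaks. The palindromic NRF1 motif was in 1 of the 48 windows and 1.505% of all, and the ZNF143 motif was in 0 of the 48, with an upper limit of 7.40%, and in 0.298% of all.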

How the data were processed

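Each list holds the narrow peaks of 1 library with Ensembl gene columns from the authors. The submitters' processing notes name CASAVA 1.7, MACS2 2.1.0 and the build hg19 (GRCh37). The aligner is not given in the sources used here. Fold, a ratio of pileup to local background, and −log10 p and −log10 q are the deposited values of the authors' peak caller, and the deposited score was not used further. The H3K9ac lists reach a q of 0.05. The H4K16ac lists reach a p of 0.005, with a largest q of 0.621 with butyrate and 0.304 in control. The lists give no read counts, so depth is unknown. Over 10994 genes, the starts the authors list differed from RefSeq GRCh38.p14 starts by a median of 42 bp, so coordinates are given as deposited and read as GRCh38, with starts counted from 0 and printed with 1 added.

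Overlapping rows on chromosomes 1 to 22 and X were merged, and an overlap was 1 bp or more. Starts came from the authors' columns and RefSeq, and 1513 genes without one were left out. Named genes follow a rule on rank: the 12 strongest shared promoter peaks by the smaller −log10 p, the 8 strongest anywhere, the 8 genes and 5 windows with the most shared peaks, the 5 widest, and list members with a shared promoter peak. Genes named from lists for peaks in their bodies were chosen after their values were seen, as were the 3 printed windows. The members and lists were chosen with earlier results of these data known. Python 3.11.15, pandas 2.3.3 and scipy 1.17.1 were used, and the interval code was tested on simulated data. No test between conditions was possible with 1 library each.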

Additional observations from a re-analysis of the deposited data

How the results depend on the processing

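No paired analysis was possible because each condition had 1 library per antibody. Of 80 alternative values, 19 stayed within the counting interval or, for counts, within 1.5 times, 60 moved further and 1 changed sign, and the order in gene bodies and the higher butyrate H3K9ac at shared peaks kept their direction under each alternative tried. Differences are shared minus control-only in percentage points, with reported values of -16.6 for gene bodies, 9.84 for butyrate H3K9ac and -0.721 for control H3K9ac. With 50% of the control peak covered, 1914 peaks were shared (2.60%), 4.70% lay at promoters, 90 genes had a shared promoter peak, 20.2% had butyrate H3K9ac, and the differences were 4.50 for butyrate and -2.53 for control H3K9ac. With the control summit inside a butyrate peak these were 2204, 2.995%, 5.26%, 120, 21.8%, 6.18 and -2.27. At a p of 0.001 or less in both lists they were 2378, 4.26%, 7.23%, 171, 27.9% and 11.5. At a control q of 0.05 or less they were 2156, 7.40%, 7.79%, 164, 30.9% and 11.98, with 49.7% in gene bodies. With equal numbers of top H4K16ac peaks they were 2458, 7.28%, 7.69%, 185, 29.8% and 11.5, with 49.8% in gene bodies. Among control peaks from 300 to under 600 bp they were 2270, 5.68%, 5.37%, 123, 20.9%, 5.93 and -2.27, with 55.2% in gene bodies, a difference of -14.3. Without windows of 5 or more shared peaks, 5.13% of control peaks were shared, 54.7% of them in gene bodies, 21.5% had butyrate H3K9ac and the difference was 7.23. With a promoter reach of 2.5 kb, 15.2% lay at promoters and 47.3% in gene bodies, a difference of -18.5, and 687 genes had a shared promoter peak. The authors' annotation columns gave a gene body difference of -12.7 and 120 genes. With equal numbers of top H3K9ac peaks, 10.1% of shared peaks had butyrate H3K9ac, a difference of 2.23. With H3K9ac over 50% of the H4K16ac peak, 15.3% did, with differences of 4.10 for butyrate and -1.55 for control H3K9ac. Within 1 kb, 45.4% did, with a difference of 18.9, and the control H3K9ac difference turned to 2.25. The cause of these changes was not tested. No library was repeated, so none could be left out, and depth behind each peak is unknown.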

Other observations

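Shared H4K16ac peaks touched 5 miRNA genes of the RefSeq table (GRCh38.p14), of 59 touched by a control H4K16ac peak. For scale, 6.15% of all control peaks were shared. The 5 miRNA genes were MIR378G, MIR3912, MIR3159, MIR6748 and MIR378J. Both members of the miR-378 family are printed because they are related in sequence, with bases 2 to 8, the seed, in capitals.
miR-378g: aCUGGGCUuggagucagaag
miR-378j: aCUGGAUUuggagccagaa
The mature miR-378g lies on the minus strand at chr1:94745880-94745899, under a shared peak with a −log10 p of 3.53 with butyrate and 4.24 in control. The mature miR-378j lies on the minus strand at chr17:37615001-37615019, under a shared peak with 3.15 with butyrate and 5.06 in control. Their seeds differ, so they form separate seed groups. The median over all shared peaks was 3.44 with butyrate and 3.93 in control. The lists carry no reads of the miRNAs themselves.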
